A study of Mus musculus with 2 samples.

Results

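The matrix metalloproteinases (MMPs), the ADAMTS proteases and the tissue inhibitors of metalloproteinases (TIMPs) were examined as 1 group of genes. Members were chosen by name alone, as every gene whose symbol was Mmp with a number and an optional a or b, Timp with a number from 1 to 4, or Adamts with a number. This gave 41 of the 26082 genes in the deposited tables, of which 20 were MMPs, 17 were ADAMTS proteases and 4 were TIMPs. The RNA came from primary mouse fibro-adipogenic progenitors (FAPs), stromal cells of skeletal muscle able to become adipocytes, and the study asked how TGFBR3, a co-receptor for TGF-β ligands, affects that change. By the labels the cells were wild type, and by the study's methods they were sorted from hind limb muscle of C57BL/6 mice bought at 6 to 8 weeks of age. One culture was transfected with TGFBR3 overexpressing plasmids and the other with the vector, and both were labelled as under adipogenic differentiation, in a medium with 20% FBS, 0.5 mM IBMX, dexamethasone at 0.25 μM and insulin at 10 μg/ml. Each condition held 1 library, so no value has a replicate, no test between the conditions could be made, and no p-value is given. The species of the plasmid's TGFBR3 and the number of mice behind each culture are not given in the sources used here.

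MMPs are zinc-dependent proteases that cut collagens, gelatins, proteoglycans and other matrix proteins, and most are secreted as inactive proenzymes. ADAMTS proteases carry thrombospondin repeats and fall into groups that cleave large proteoglycans such as versican and aggrecan, that remove the N-propeptide of fibrillar procollagens, or that act on other matrix proteins. TIMPs block the active site of MMPs, and TIMP3 also acts on ADAMTS enzymes. In muscle the balance between proteases and TIMPs sets how the connective tissue around the fibres is remodelled, much of which is laid down by FAPs.

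The libraries held 62321027 counts in the library labelled TGFBR3 overexpression, called below the library labelled TGFBR3, and 83779203 in that labelled vector control, called below the library labelled control. Tgfbr3 itself was at an FPKM of 36.9 in the former and 35.1 in the latter, a fold of 1.05 with a counting interval of 1.03 to 1.07. FPKM is the count per kilobase of exon and per library total, and each fold below is the FPKM of the library labelled TGFBR3 over that of the library labelled control. The FPKM of mouse Tgfbr3 was thus not raised beyond the ratio of the median gene. The median gene was 1.11-fold higher in the same library over 10626 genes. Whether RNA of the plasmid would be counted on the mouse gene is not known here. The study also measured TGFBR3 by RT-PCR after transfection, which is not compared here. The libraries are named by their labels throughout. The FAP markers Pdgfra (FPKM 30.5 and 32.6) and Ly6a (1013 and 706) were present in both libraries, and Lum was near 0 with 45 and 8 counts. The summed FPKM of 5 adipocyte markers was 22.8 and 56.8, with all 5 lower in the library labelled TGFBR3, and their part in the values below was not tested. That of the 9 macrophage markers was 0.91 and 0.54. Adgre1, Tyrobp and Fcer1g were at 0 counts in both libraries, Ptprc at 0 and 4 and C1qa at 0 and 8. Csf1r was at 182 and 210 counts, Laptm5 at 35 and 19, C1qb at 20 and 0 and C1qc at 7 and 4. In such bulk RNA, fewer cells of a type and less RNA per cell cannot be told apart. Intervals are exact 95% binomial intervals and cover counting error only.

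Of the 41 members, 38 had an FPKM above 0 in at least 1 library, and 23 reached an FPKM of 1 in at least 1 library. The other 15 measured members stayed below an FPKM of 1 in both, and Mmp1b, Adamts17 and Adamts19 had no count in either. The cultures held far more inhibitor RNA than protease RNA per kilobase. Timp1, the secreted inhibitor of most soluble MMPs, was the 8th most abundant of all genes by FPKM in the library labelled TGFBR3 and the 12th in the library labelled control. Timp2, the inhibitor that also takes part in activating pro-MMP2 at the cell surface, ranked 36th and 28th. The most abundant proteases were Mmp2 and Mmp14, at the ranks 347 and 275 for Mmp2 and 615 and 648 for Mmp14. These 4 genes kept the same order in both libraries. Mmp7, Mmp20, Mmp21, Adamts13 and Adamts18 had no entry among the 26082 genes and so could not be compared.

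**Figure D1:**
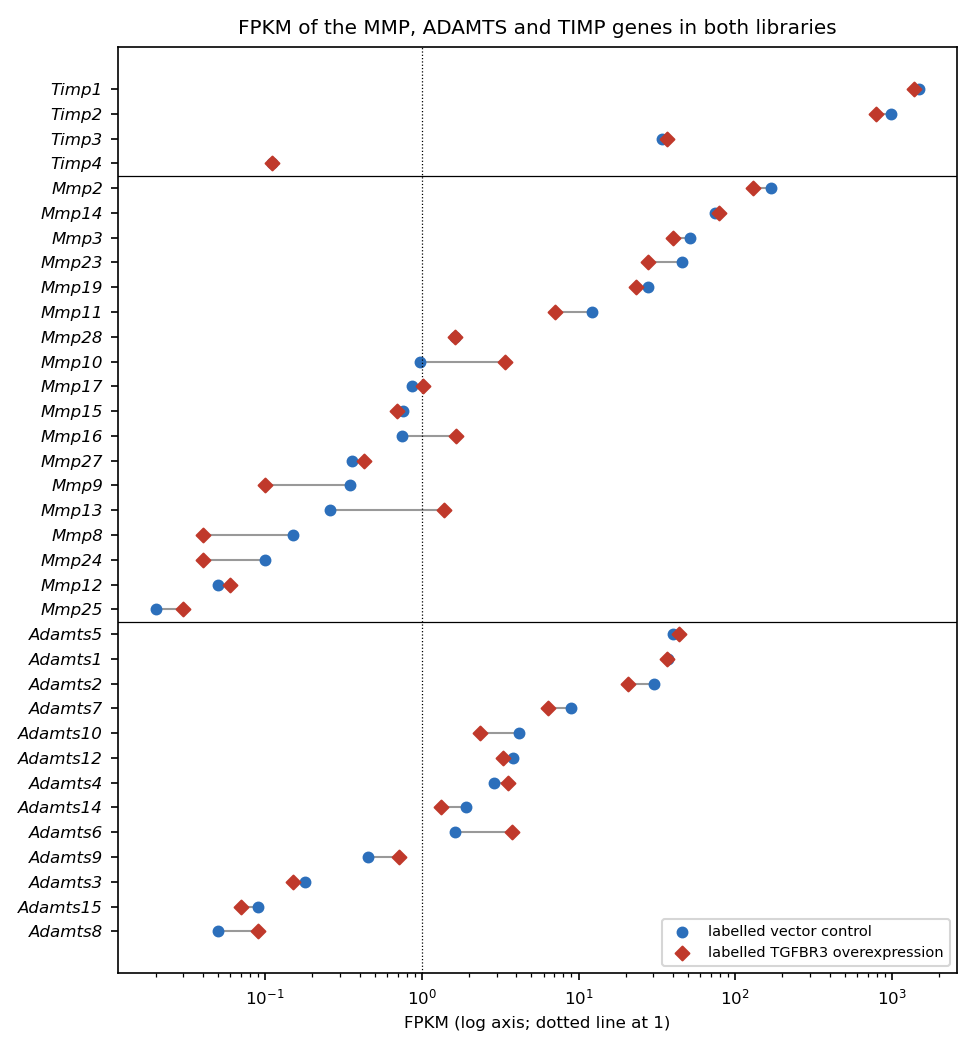
FPKM (log axis) of each member with a value above 0 in both libraries, by family, with a blue circle for the library labelled control, a red diamond for the library labelled TGFBR3 and a grey line joining the pair. Timp1 and Timp2 lie above all proteases, and the long lines belong to low genes such as Mmp10 and Mmp13, while Mmp14, Adamts1 and Adamts5 lie nearly on 1 point.

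A difference of 2-fold was read on the log2 scale of (FPKM + 1), where folds of low genes come out smaller than they are. On this scale 1 member, Mmp10, was 2-fold higher or more in the library labelled TGFBR3, beside 1.6% of the 23121 genes with a value above 0, and 0 members were 2-fold lower, beside 0.536% of those genes. At 1.5-fold, 4 members were higher (Mmp10, Mmp13, Adamts6 and Mmp16), beside 7.29% of genes, and 3 were lower (Mmp11, Mmp23 and Adamts10), beside 2.63%. By the counting interval of the plain fold, 3 members lay wholly at or above 2 (Mmp13, Mmp10 and Adamts6), beside 7.21% of genes, and Mmp9 alone lay wholly at or below 0.5, beside 2.27%. With 38 measured members, these counts of 1 to 4 are small shares of the family on either side, and the shares of members 2-fold higher by ratio or by interval are near those of all genes.

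Smaller differences leaned downward. Among the 23 members with an FPKM of at least 1, 9 were higher and 14 lower in the library labelled TGFBR3, with a median log2 ratio of −0.11. Over the 11708 genes that met the same limit, 7462 were higher and 4227 lower, with a median of 0.15. Set against the 1.11-fold of the median gene, the interval lay wholly below it for 16 of the 23 members, beside 40.2% of all such genes, and wholly above it for 5 (Mmp13, Mmp10, Adamts6, Mmp16 and Adamts4), beside 44.0%. Mmp17 and Mmp28 spanned it. The 16 are 69.6% of the 23 members, a description of these 2 libraries that carries no error between cultures.

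**Figure D2:**
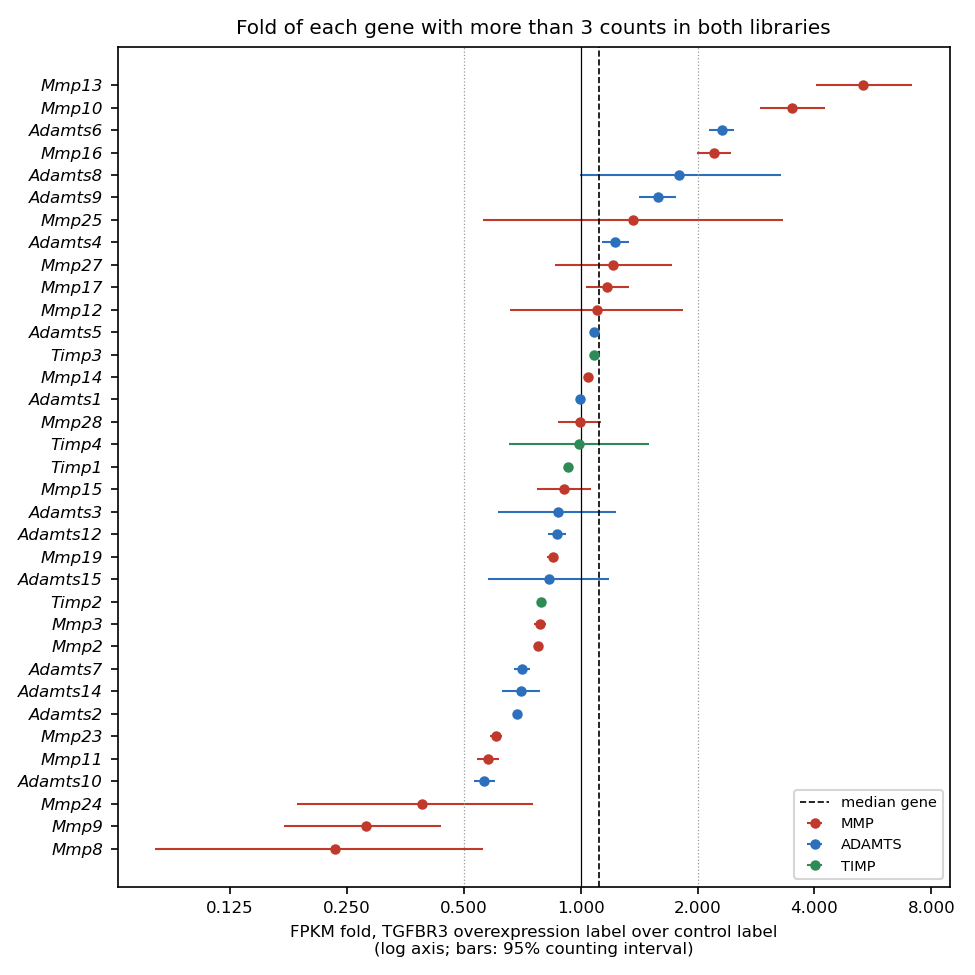
FPKM fold (log axis) of each member with more than 3 counts in both libraries, ordered by size, with the exact 95% counting interval as a bar and colours for the families. The solid line marks no change, the dashed line the median gene at 1.11 and the dotted lines 2-fold either way. Most well-counted members lie left of the dashed line, and the members past the dotted lines have intervals that are wide in comparison with those of Timp1, Timp2 or Mmp2.

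The 2 abundant inhibitors were lower in the library labelled TGFBR3 and the third was close to even. Timp1, a small gene on the X chromosome (chrX:20870166-20874735, mm10, plus strand) that lies inside Syn1 on the other strand without sharing exon sequence, had an FPKM of 1375 in the library labelled TGFBR3 and 1486 in the library labelled control, from 82807 and 121911 counts. The fold was 0.925 (0.917 to 0.933). Timp2 (chr11:118301069-118355740, minus strand) had an FPKM of 786 and 993, from 207839 and 357466 counts, a fold of 0.792 (0.788 to 0.796). Because Timp2 differed more than Timp1, the ratio of Timp1 to Timp2 FPKM was 1.75 in the former library and 1.5 in the latter. Timp3, the inhibitor that binds to the matrix and also acts on ADAM and ADAMTS enzymes, had an FPKM of 36.9 and 34.2 and a log2 ratio of 0.11, which became −0.04 when the FPKM were centred on the median gene. Its exons overlap those of Syn3 on the other strand, and 21.9% of its 31-base words also occur in other transcripts. The submitters marked the second strand with dUTP, but whether strand was used in counting is not given in the sources used here, and the same holds for the 12 members whose exons overlap a gene on the opposite strand. Timp4 was low, with 43 and 59 counts and a fold of 0.993 (0.654 to 1.5). Timp1 and Timp2 together made up 98.3% and 98.6% of the summed TIMP FPKM.

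Of the gelatinases, which digest denatured collagen and type IV collagen, Mmp2 carried nearly all of the RNA. Mmp2 (chr8:92827291-92853420, plus strand) had an FPKM of 130.4 in the library labelled TGFBR3 and 168 in the library labelled control, from 29823 and 52315 counts, and a fold of 0.776 (0.765 to 0.788). Mmp9 was scarce, at an FPKM of 0.10 and 0.35 from 24 and 117 counts. Its fold of 0.279 (0.172 to 0.436) lay wholly below 0.5, though on the scale of log2 (FPKM + 1) it was only −0.30. Mmp8, the neutrophil collagenase, was also lower, with 6 and 35 counts and a fold of 0.233 (0.0803 to 0.561). Both Mmp8 and Mmp9 are stored in the granules of neutrophils, and the summed FPKM of the 8 neutrophil markers in the tables was 10.1 and 19.5. Of these, Camp was at 4.13 and 15.2, S100a8 at 5.81 and 4.15, and the defining markers Csf3r and Ngp were at 0 counts in both libraries, with Mpo at 3 and 4 counts and Elane at 0 and 10. By the study's methods the cells had been sorted with a panel of antibodies that lists CD45, the leukocyte marker, and CD31, and were then cultured. The part of neutrophil RNA in the Mmp8 and Mmp9 values was not tested.

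The group of MMP genes on chromosome 9 held the members with the largest folds. It contains 8 members, Mmp13, Mmp12, Mmp1b, Mmp3, Mmp1a, Mmp10, Mmp8 and Mmp27, within 309 kb (chr9:7272514-7581885, mm10). Collagenases and stromelysins of this group are textbook targets of AP-1, the dimer of Fos and Jun proteins, through an element close to the start site. The 250 bases before the RefSeq start (build GRCm38.p6) were searched for TGANTCA, an AP-1 element whose reverse complement is itself, so that 1 search covers both strands. Of the 27 members with such a window, 6 held the element, and all 6 belong to this group (Mmp13, Mmp3, Mmp10, Mmp1a, Mmp1b and 1 of the 2 windows of Mmp12). Counted by window, 6 of the 29 member windows held it (20.7%), beside 6.75% of all 32851 windows in the table. The windows of Mmp10 and Mmp13 are shown because these members had the largest log2 ratios, that of Mmp3 because it is the abundant neighbour of Mmp10, and that of Mmp11 because it had the lowest log2 ratio. Capitals mark the element, whose first base lies 63 bases upstream of the start in Mmp10 (chr9:7502092-7502341, plus strand), 35 in Mmp13 (chr9:7272264-7272513, plus strand) and 46 in Mmp3 (chr9:7445572-7445821, plus strand). The window of Mmp11 (chr10:75932503-75932752, minus strand) holds none.
Mmp10: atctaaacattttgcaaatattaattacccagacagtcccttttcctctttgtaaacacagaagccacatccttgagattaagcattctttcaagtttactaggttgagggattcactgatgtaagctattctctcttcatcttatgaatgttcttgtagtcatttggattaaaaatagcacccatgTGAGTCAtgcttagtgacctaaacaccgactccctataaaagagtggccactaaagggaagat
Mmp13: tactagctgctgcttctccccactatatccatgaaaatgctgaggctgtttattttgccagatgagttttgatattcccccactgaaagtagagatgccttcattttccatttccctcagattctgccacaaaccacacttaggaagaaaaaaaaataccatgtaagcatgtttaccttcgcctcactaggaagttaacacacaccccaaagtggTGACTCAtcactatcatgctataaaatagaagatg
Mmp3: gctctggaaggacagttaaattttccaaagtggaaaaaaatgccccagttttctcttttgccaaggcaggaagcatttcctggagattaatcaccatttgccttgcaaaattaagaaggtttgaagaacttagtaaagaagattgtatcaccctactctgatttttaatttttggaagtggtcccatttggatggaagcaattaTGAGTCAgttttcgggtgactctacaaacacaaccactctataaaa
Mmp11: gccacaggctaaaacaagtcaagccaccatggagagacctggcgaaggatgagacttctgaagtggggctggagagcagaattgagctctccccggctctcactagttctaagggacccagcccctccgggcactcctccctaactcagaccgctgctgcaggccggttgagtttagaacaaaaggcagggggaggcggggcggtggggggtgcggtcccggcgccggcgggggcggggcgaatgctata
A match describes these letters and is not a measured binding site. Mmp2, Mmp9, Mmp16, Mmp17, Mmp19, Adamts4, Adamts5, Adamts6, Adamts7, Adamts8, Adamts10, Adamts15, Adamts16 and Adamts19 had no entry in the table of windows.

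Mmp13, the main interstitial collagenase of rodents, had an FPKM of 1.38 in the library labelled TGFBR3 and 0.26 in the library labelled control. These values rest on 251 and 64 counts and give a fold of 5.34 (4.04 to 7.14) and a log2 ratio of (FPKM + 1) of 0.92. Mmp10 (stromelysin-2), which digests proteoglycans and activates other pro-MMPs, had an FPKM of 3.41 and 0.97, from 399 and 155 counts. Its fold was 3.51 (2.91 to 4.25) and its log2 ratio 1.16. Mmp3 (stromelysin-1), which has a like range of substrates, lies in the same group and differed in the other direction, with an FPKM of 40.1 and 51.1, from 4905 and 8504 counts, and a fold of 0.786 (0.758 to 0.814). Mmp3 was therefore 11.8 times as abundant as Mmp10 in the former library and 52.7 times in the latter. Of the 31-base words of Mmp10, 11.9% also occur in other transcripts, all of them in Mmp3, so reads from the shared stretches may have been split between the pair in counting. The other members of the group were near the floor. Mmp27 had 66 and 74 counts, Mmp12, the macrophage elastase, had 30 and 37, Mmp1a had 4 and 0 and Mmp1b, which shares 29.0% of its words with other transcripts, had 0 and 0. The 3 measured collagenases summed to an FPKM of 1.44 and 0.41. Mmp13 held 1.38 of the former, and the latter was made up of Mmp13 at 0.26 and Mmp8 at 0.15. Mmp11 (stromelysin-3), which is processed inside the cell by furin and lies outside this group, had an FPKM of 7.08 and 12.2, from 1336 and 3147 counts, and a fold of 0.578 (0.542 to 0.617).

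**Figure D3:**
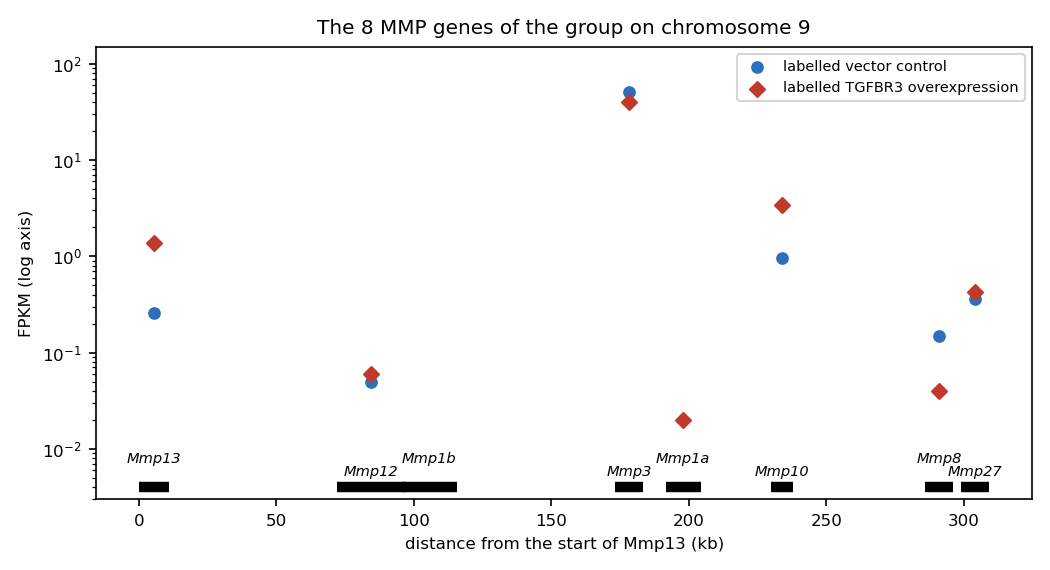
FPKM (log axis) of the 8 members of the chromosome 9 group against distance in kb from the start of Mmp13, with black bars for the gene bodies and values of 0 not drawn. Mmp3 stands far above its neighbours in both libraries and is lower under the TGFBR3 label (40.1 and 51.1), whereas Mmp10 and Mmp13 are higher under that label.

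Among the membrane-type MMPs, the abundant Mmp14 was close to even, Mmp16 was higher in the library labelled TGFBR3 and the scarce Mmp24 was lower. Mmp14 (MT1-MMP), the collagenase of the cell surface that activates pro-MMP2 together with TIMP2, had an FPKM of 78.3 in the library labelled TGFBR3 and 74.8 in the library labelled control, from 31669 and 41196 counts. Its fold of 1.05 (1.03 to 1.06) was below that of the median gene, and its log2 ratio turned from 0.07 to −0.09 when centred on that gene. The ratio of Mmp2 to Mmp14 FPKM was 1.66 in the former library and 2.25 in the latter. Mmp16 (MT3-MMP), which also activates pro-MMP2, had an FPKM of 1.66 and 0.75, from 977 and 603 counts, a fold of 2.21 (1.99 to 2.45). Mmp17, which is held at the membrane by a lipid anchor, was at 1.02 and 0.87, with a fold of 1.17 (1.03 to 1.33). Mmp15 had 254 and 382 counts with a fold of 0.906 (0.770 to 1.06), and Mmp25 had 12 in each library. Mmp24 had 12 and 42 counts and a fold of 0.389 (0.186 to 0.753), and 13.0% of its words are shared with other transcripts, those of BC029722 on the opposite strand.

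Among the remaining MMPs, Mmp23, an MMP with an N-terminal membrane anchor, was the most abundant and the most different. Mmp23 (chr4:155650655-155653384, minus strand) had an FPKM of 27.9 in the library labelled TGFBR3 and 46.1 in the library labelled control. From 4433 and 9962 counts, its fold was 0.606 (0.585 to 0.628). Mmp19, which digests basement membrane proteins, had an FPKM of 23.4 and 27.6 and a fold of 0.846 (0.818 to 0.875), and 26.7% of its words occur in other transcripts, mainly Tmem198b on the other strand. Mmp28 (epilysin) was even, at an FPKM of 1.62 and 1.63.

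The ADAMTS proteases that cleave hyalectans, the proteoglycans that bind hyaluronan, were close to even in sum. Adamts5, the main aggrecanase of the mouse, had an FPKM of 43.7 in the library labelled TGFBR3 and 40.3 in the library labelled control, from 31970 and 40150 counts and with a fold of 1.08 (1.07 to 1.10). Adamts1, a versican-cleaving protease next to it on chromosome 16, was at 36.9 and 37.0, with a fold of 0.998 (0.976 to 1.02). Both were below the median gene, and the log2 ratio of Adamts5 turned from 0.11 to −0.04 when centred on it. Adamts4, another aggrecanase, was at 3.53 and 2.87, a fold of 1.23 (1.13 to 1.33). Adamts9, which cleaves versican, stayed below an FPKM of 1 at 0.71 and 0.45, but its 725 and 625 counts gave a fold of 1.58 (1.42 to 1.76). Adamts15 had 53 and 87 counts, Adamts8 had 29 and 22 and Adamts20 had 0 and 6. Versican itself (Vcan), a substrate of this group, was at an FPKM of 14.0 and 11.1.

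The procollagen N-proteinases were lower. Adamts2, which removes the N-propeptide of types I and III procollagen, had an FPKM of 20.8 in the library labelled TGFBR3 and 30.4 in the library labelled control, from 13196 and 26246 counts. Its fold was 0.685 (0.671 to 0.699). Adamts14, a close relative of the same function, was at 1.33 and 1.9 with a fold of 0.703 (0.627 to 0.786). Adamts3, which acts mainly on type II procollagen and on the processing of VEGF-C, had 57 and 89 counts and an interval of 0.614 to 1.23. The enzymes and enhancers of the opposite end of procollagen are given with the pathway lists.

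The other ADAMTS members split. Adamts6 (chr13:104287835-104496695, plus strand), which acts on fibrillin and latent TGF-β binding protein, had an FPKM of 3.75 in the library labelled TGFBR3 and 1.63 in the library labelled control. Its 1988 and 1173 counts gave a fold of 2.31 (2.15 to 2.48). Adamts10, its nearest paralogue and a gene of fibrillin microfibrils, differed in the other direction, at 2.34 and 4.15 and with a fold of 0.565 (0.530 to 0.603). Fewer than 1% of the words of either gene occur in other transcripts (0.112% and 0.384%). Adamts7, which cleaves cartilage oligomeric matrix protein, was at 6.35 and 8.99 with a fold of 0.707 (0.674 to 0.740), and Adamts12 was at 3.31 and 3.8 with a fold of 0.869 (0.826 to 0.915). Adamts16 had 0 and 4 counts.

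Summed per class, FPKM puts genes of different length on 1 scale. The MMPs summed to 318 in the library labelled TGFBR3 and 386 in the library labelled control, a ratio of 0.823. The ADAMTS proteases summed to 123 and 132 (0.933) and the TIMPs to 2198 and 2513 (0.875). Over all genes the ratio of summed FPKM was 0.952, so that of the ADAMTS proteases was close to the whole library. Because TIMPs and proteases were both lower, the ratio of summed TIMP to summed protease FPKM was nearly the same, at 4.99 and 4.85. Against MMPs alone it was 6.92 and 6.51, and against ADAMTS proteases alone 17.9 and 19.1. These are ratios of RNA and do not weigh which TIMP acts on which enzyme. Within the proteases the classes differed. Procollagen N-proteinases (22.3 and 32.5, ratio 0.686), the MMPs outside the named classes (53.4 and 75.8, 0.705), gelatinases (130.5 and 168, 0.775) and stromelysins (50.6 and 64.3, 0.787) were lower. The ADAMTS proteases outside the named classes (15.8 and 18.6, 0.848) were lower too. Hyalectanases (85.0 and 80.7, 1.05) and membrane-type MMPs (81.8 and 77.3, 1.06) were not. Both of these ratios lie above the 0.952 of the summed FPKM of all genes. They lie below the 1.11 of the median gene, which is a different measure. Collagenases, the least abundant class, were higher, at 1.44 and 0.41 (3.51). The counts of all 41 members were 0.740% and 0.875% of their libraries.

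**Figure D4:**
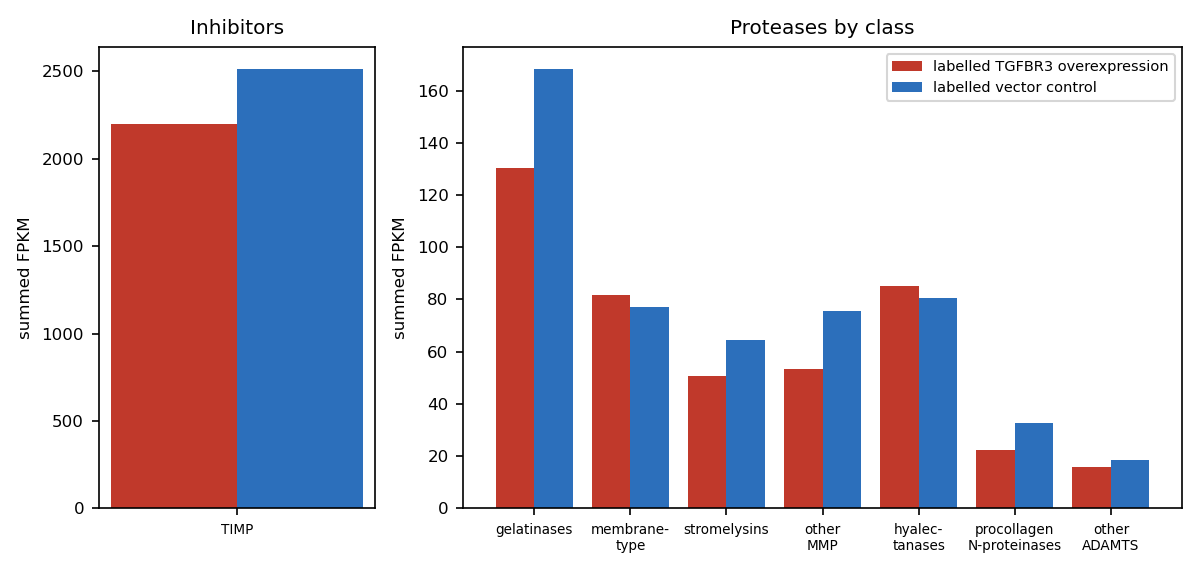
Summed FPKM of the TIMPs (left) and of each protease class (right) in the library labelled TGFBR3 (red) and the library labelled control (blue), on axes that start at 0 and differ in scale. Collagenases, at 1.44 and 0.41, are too low to draw. Hyalectanases and membrane-type MMPs stand nearly level, and the other drawn classes are lower in red.

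Log2 ratios in these libraries moved with the GC content of the transcript. Over the 11207 genes whose mean FPKM was 1 or more, the median log2 ratio went from 0.42 in the lowest of 20 GC bins to −0.26 in the highest, and the correlation across genes was −0.384 (Pearson) and −0.461 (Spearman). Over the 23 members with an FPKM of at least 1 it was −0.703 and −0.652. These points share the same 2 libraries and are a description. The 4 members that were 1.5-fold higher had a GC content between 41.7% (Mmp13) and 46.0% (Mmp10), and the 3 that were 1.5-fold lower lay between 56.6% (Mmp11) and 58.6% (Mmp23). With the median of each GC bin subtracted, Mmp10 went from 1.16 to 0.87, Mmp13 from 0.92 to 0.49, Adamts6 from 0.85 to 0.47 and Mmp16 from 0.60 to 0.22. Mmp10, the 1 member that had been 2-fold higher, was then below that threshold. Mmp11 went from −0.71 to −0.63, Mmp23 from −0.70 to −0.60 and Adamts10 from −0.62 to −0.52. Mmp3, whose GC content of 45.9% is next to that of Mmp10, went from −0.34 to −0.63. Of the 23 members, 8 were higher and 15 lower on this scale, with a median of −0.21, while 49.6% of all such genes were lower. The source of the GC trend was not tested.

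**Figure D5:**
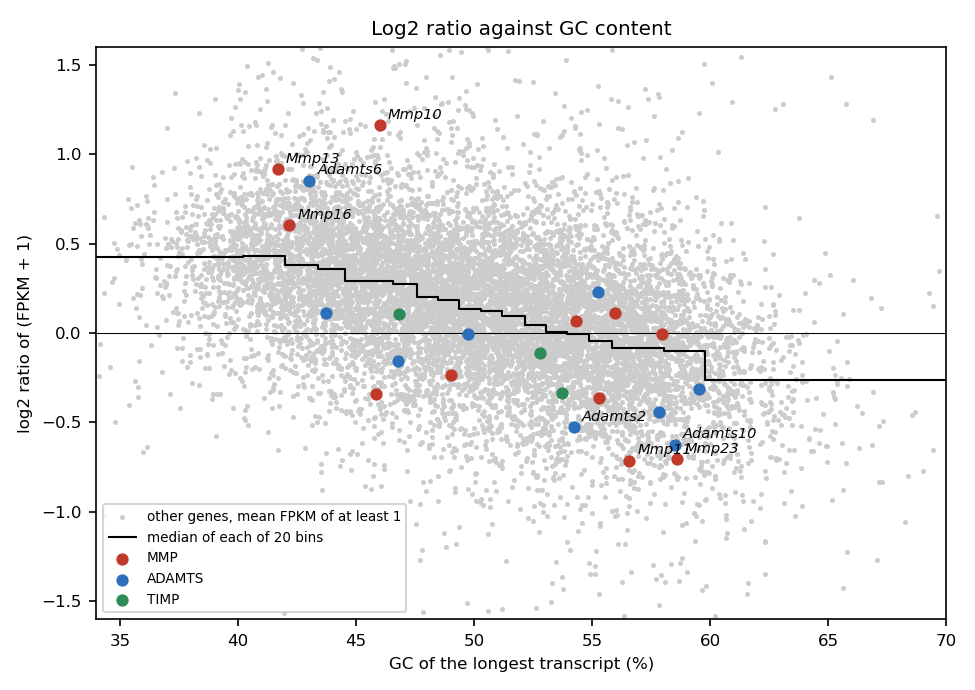
Log2 ratio of (FPKM + 1) against the GC content of the longest transcript in percent, with grey points for other genes whose mean FPKM was 1 or more, a black line for the median of each of 20 bins and coloured points for the 23 members with an FPKM of at least 1 in a library. Of the 11207 genes, 155 lie outside the axes. Mmp10, Mmp13, Adamts6 and Mmp16 lie at low GC above the line, and Mmp11, Mmp23 and Adamts10 at high GC below it.

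Genes that act with these proteases were more often lower than higher. Of 57 listed genes that activate, inhibit, assist or regulate them or serve as their substrates, 54 were measured and 36 reached an FPKM of 1. Of these 36, 14 were higher and 22 lower in the library labelled TGFBR3, with a median log2 ratio of −0.09. On the scale of (FPKM + 1), 0 were 2-fold different either way. Among all genes at this level, 36.1% were lower, and 3.15% were 2-fold higher and 1.06% 2-fold lower. By the counting interval of the plain fold, 2 of the 54 lay wholly at or above 2, beside 7.21% of all genes. Another 3 lay wholly at or below 0.5, beside 2.27%. The procollagen C-proteinase Bmp1 was at 39.1 and 54.2 (log2 ratio −0.46), its enhancer Pcolce at 151 and 201 (−0.41) and Pcolce2 at 0.76 and 1.93 (−0.74), so the 3 members of that list with an FPKM of at least 1 were lower. Tll1, below that level, was at 0.41 and 0.35 (0.06). Of the convertases that remove the propeptides of some MMPs, Furin was at 21.97 and 28.1 (−0.34) and Pcsk6 at 12.5 and 17.0 (−0.41), whereas Pcsk7 was higher at 10.0 and 8.2 (0.26). Pcsk5, below an FPKM of 1, was lower at 0.18 and 0.5 (−0.35), with a plain fold of 0.353 (0.297 to 0.417). Bsg (basigin), an inducer of MMPs, was at 794 and 971 (−0.29).

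In the plasminogen system, which activates pro-MMPs through plasmin, the serpin Serpine2 was at an FPKM of 47.5 in the library labelled TGFBR3 and 71.8 in the library labelled control (log2 ratio −0.59). Plat, the tissue plasminogen activator, was at 8.83 and 12.7 (−0.48), and Plaur, the urokinase receptor, was the other way at 7.53 and 5.26 (0.45). Reck, a membrane-bound inhibitor of MMPs, was at 8.03 and 8.65 (−0.10). It was the only gene among the other inhibitors with an FPKM of at least 1. Of the ADAMTS-like genes, which lack the protease domain, Adamtsl3 was at 0.79 and 1.51 (−0.49) and Adamtsl4 at 11.8 and 15.7 (−0.39). The ADAM sheddases were split with 4 higher and 4 lower, from Adam8 at 0.72 and 1.48 (−0.53) to Adam33 at 3.40 and 2.48 (0.34). Among the cathepsins, Ctsd was at 1223 and 1577 (−0.37), Ctsl at 138 and 159 (−0.20) and Ctsb at 269.8 and 220.3 (0.29). Of the 6 AP-1 subunits with an FPKM of at least 1, 4 were higher and 2 lower, with a median log2 ratio of 0.11. Among all 11708 genes at this level, 7462 were higher, with a median of 0.15. Centred on the median gene, the median of the 6 subunits was −0.04. Fosl1 was higher at 38.2 and 28.4 (0.42), whereas Jund at 111 and 159.5 (−0.52) and Junb at 61.0 and 80.6 (−0.40) were lower.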

How the data were processed

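Poly(A)-selected RNA of 2 cultures of FAPs, 1 per condition, was sequenced as paired reads of 150 nt. The authors deposited, for each gene and library, a raw count and an FPKM value rounded to 2 decimals, on mm10. The submitters' processing notes name cutadapt 1.9, HISAT2 2.2.1 and StringTie 2.1.6 with DESeq2 and edgeR, whereas the study's methods name STAR and FeatureCounts. Which of them made the deposited counts, and the annotation release, are not given in the sources used here. Both the counting rule for shared reads and the library total behind FPKM can shift values.

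Members were compared by the log2 ratio of (FPKM + 1), where 1 is the pseudocount, and called at 1 or −1, over genes with an FPKM above 0 in either library. The plain fold was the ratio of counts multiplied by 1.36, the ratio of the library totals behind FPKM, with an exact Clopper-Pearson interval at the 95% level. The floor was 3 counts. No source used here says whether the libraries carried molecular identifiers, and reads without them are not independent molecules. The centred ratio divides by the plain fold of the median gene, and the GC-corrected one subtracts the median of each of 20 bins. Annotation came from GENCODE M21, which matched 26012 of 26082 genes and all 41 members. Upstream windows came from RefSeq (GRCm38.p6) and matched 27 members. The calculations were tested on simulated counts. No count model was run, since each condition held 1 library; edgeR 4.0.16 gave only the TMM factors of an alternative. Python 3.11.15 and R 4.3.3 were used.

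The members, the gene lists and the classes were chosen with earlier results of these data known. Every member with an FPKM of at least 1 was named, the others by counts where above 3, and up to 3 genes of each list by the size of the log2 ratio. The upstream window of Mmp3 and the genes Pcsk5, Pcsk7 and Tll1 were added after the values were seen. Alternatives were other pseudocounts, the plain ratio, an FPKM filter, centring, rescaling to a common sum, library-scaled counts (CPM), TMM, removal of the GC or length trend, and a 1.5-fold threshold.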

Additional observations from a re-analysis of the deposited data

How the results depend on the processing

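The 2-fold calls depended on the scale. The main measure had 1 member higher and 0 lower. The counts that follow are members higher and lower, each pair beside the shares of all genes. A pseudocount of 0.1 gave 4 and 1 (8.91% and 3.45%), one of 0.01 gave 5 and 5 (21.3% and 11.9%), the plain ratio 4 and 3 (13.4% and 4.22%), library-scaled counts (CPM) 4 and 0 (2.76% and 0.852%), and TMM 2 and 1 (1.69% and 1.61%). Removal of the GC trend gave 0 and 0 (1.03% and 0.650%), and the 1.5-fold threshold 4 and 3 (7.29% and 2.63%).

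Median log2 ratios for MMPs, ADAMTS proteases and TIMPs were −0.0055, −0.014 and −0.056, beside 0.0515 for all genes with a value above 0. Each other scale has its own median over all genes, which is not listed here. For MMPs, ADAMTS proteases and TIMPs the medians on these scales follow. They were −0.0084, −0.14 and −0.0562 with a pseudocount of 0.1, −0.0088, −0.25 and −0.0562 with 0.01, −0.0759, −0.197 and −0.0616 for the plain ratio, and −0.0239, −0.0998 and −0.0716 for CPM. They were −0.0956, −0.0401 and −0.153 when centred, −0.20, −0.21 and −0.22 under TMM, −0.25, −0.16 and −0.18 without the GC trend, and −0.17, −0.22 and −0.19 without the length trend. Members with an FPKM of at least 1 gave −0.16 for ADAMTS proteases and −0.11 for TIMPs, and a common sum 0.0162 for MMPs and −0.0168 for TIMPs.

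Ratios of summed FPKM (0.823, 0.933 and 0.875 in the same order) were 0.740, 0.839 and 0.786 when centred, and 0.865, 0.981 and 0.919 with a common sum. They were 0.859, 0.867 and 0.802 without the most abundant member, and 0.856, 0.924 and 0.828 as shares of counts. All stayed below 1, while the main ratio of summed FPKM over all genes was 0.952.

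Of the 23 members with an FPKM of at least 1, 17 kept their direction under every alternative run, 5 higher and 12 lower. The other 6 were near even. The same count was not made over all genes, so no share stands beside it. Timp3, Adamts5 and Mmp14 turned lower when centred or under TMM. Timp3 and Adamts5 also turned lower without the GC or the length trend, and Mmp28 turned higher without the GC trend. Mmp14 and Mmp17 turned lower without the length trend. Adamts1 and Mmp28 turned higher with a common sum.

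No paired analysis was possible because each condition held 1 library. For the same reason no library was left out. Depth limits low members, as in Mmp8 with 6 and 35 counts and an interval of 0.0803 to 0.561.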
